A study of Mus musculus with 8 samples.

Results

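Transcripts of 9 antioxidant genes and of Txnip were followed in mouse knee cartilage after destabilisation of the medial meniscus. The 10 genes are the superoxide dismutases Sod1, Sod2 and Sod3, catalase (Cat), the glutathione peroxidases Gpx1, Gpx3 and Gpx4, the quinone reductase Nqo1, haem oxygenase 1 (Hmox1) and Txnip. They were chosen by name and found by gene identifier, 10 of the 50462 identifiers in the deposited table, and all 10 passed the low-count filter of the test. RNA-seq libraries came from medial knee cartilage caps of individual wild-type C57BL/6J male mice. There were 4 naive libraries (day 0, 11 weeks of age, no surgery) and 4 DMM libraries (day 42, 17 weeks of age), and DMM mice had the ligament that holds the left medial meniscus to the tibia cut. Without sham-operated mice in the comparison, the effects of surgery and of 6 weeks of age cannot be told apart.

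Superoxide dismutases convert superoxide to hydrogen peroxide, which catalase and the glutathione peroxidases then break down. The enzymes differ in where they work: Sod1 in the cytosol, Sod2 in mitochondria, Sod3 bound to heparan sulphate outside the cell, Cat in peroxisomes, Gpx1 in cytosol and mitochondria, Gpx4 on lipid peroxides in membranes, and Gpx3 as a secreted enzyme. Nqo1 and Hmox1 are textbook targets of the transcription factor NRF2, whereas Txnip encodes an alpha-arrestin that binds thioredoxin and whose transcription follows glucose.

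At day 42 the transcripts of the secreted enzymes were higher and those of an intracellular peroxidase and a haem-degrading enzyme were lower. Sod3 (1.75 fold) and Gpx3 (1.92 fold) were upregulated, and Gpx1 (0.609 fold) and Hmox1 (0.57 fold) were downregulated. The other 6 genes, Sod1, Sod2, Cat, Gpx4, Nqo1 and Txnip, did not pass the test. A gene was called at a DESeq2 adjusted p of 0.05 or less together with a change of 1.5-fold or more, and 4 of the 10 genes were called, against 13.0% of the 18707 genes tested. Of the 4, 2 were higher (7.38% of all genes tested) and 2 were lower (5.63% of all genes tested). The 10 genes were chosen with earlier results of these data known, so these shares are a description and not a test. The median log2 fold change was -0.26 over the 10 genes and -0.01 over all genes tested.

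**Figure D1:**
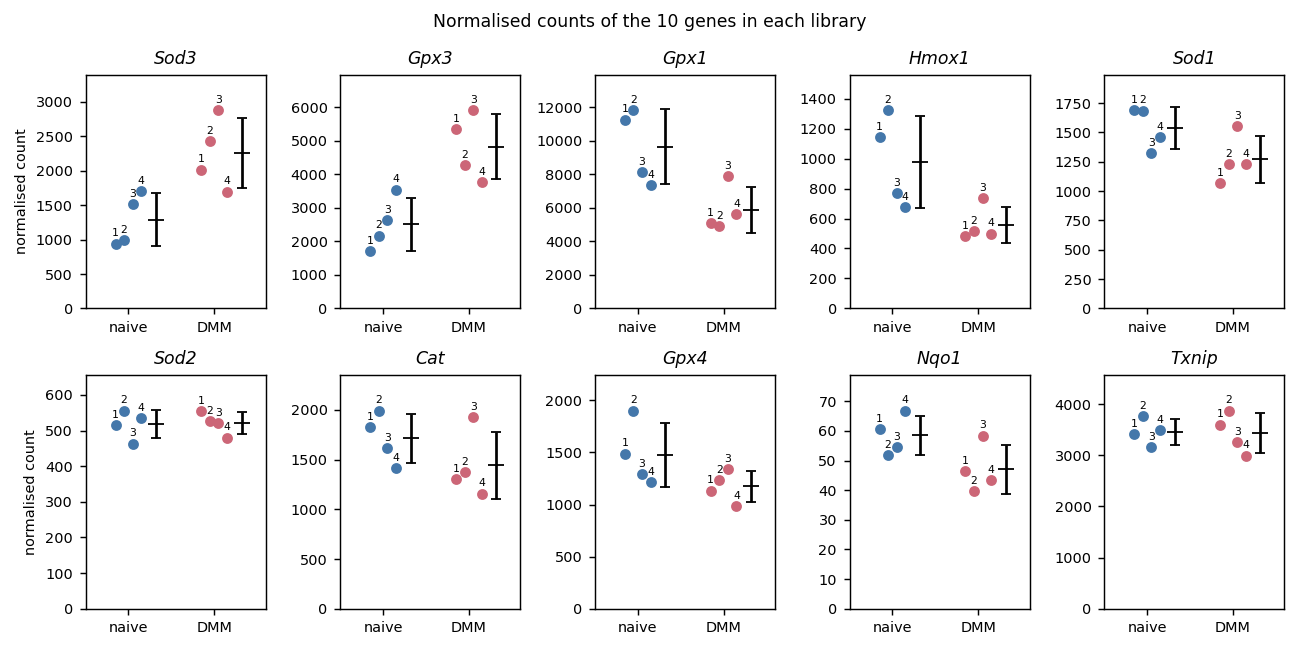
Normalised counts (y axis, from 0) of each of the 10 genes in the 4 naive and 4 DMM libraries (points, numbered by replicate), with the mean and SD as a bar beside each group. Gpx3 is the only gene of the 10 whose DMM libraries all lie above its naive libraries, and DMM 3 is the highest DMM point in every panel except those of Sod2 and Txnip.

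The promoters of 8 of the 10 genes were in the RefSeq table used (11 windows on GRCm38.p6, each from 250 bases before to 50 bases after a transcript start), and those of Sod3 and Hmox1 were not. Each window was searched on both strands for 4 motifs. These were the core of the antioxidant response element bound by NRF2 (TGACNNNGC), the carbohydrate response element bound by MondoA and ChREBP (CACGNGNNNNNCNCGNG), a FoxO site (GTAAACA) and the CCAAT box (CCAAT). Windows are shown for Gpx1 and Gpx3, the peroxidases that changed in opposite directions, for Sod1, the only one of the 8 genes with an antioxidant response element core, and for Txnip, the only one with a carbohydrate response element. Capitals mark the motif matches, and no matches overlapped each other in these 4 windows.
Gpx1, chr9:108338830-108339129, + strand: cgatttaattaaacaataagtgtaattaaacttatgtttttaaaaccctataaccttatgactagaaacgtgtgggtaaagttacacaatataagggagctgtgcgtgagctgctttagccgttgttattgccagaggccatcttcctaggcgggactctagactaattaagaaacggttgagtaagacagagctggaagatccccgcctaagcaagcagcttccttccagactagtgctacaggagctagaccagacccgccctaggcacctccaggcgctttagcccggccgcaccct
Gpx3, chr11:54902604-54902903, + strand: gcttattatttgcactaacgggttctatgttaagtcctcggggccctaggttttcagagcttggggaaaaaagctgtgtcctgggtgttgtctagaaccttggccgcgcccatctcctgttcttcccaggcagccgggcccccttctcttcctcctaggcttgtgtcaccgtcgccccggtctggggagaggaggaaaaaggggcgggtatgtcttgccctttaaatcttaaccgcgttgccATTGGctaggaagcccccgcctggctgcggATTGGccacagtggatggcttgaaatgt
Sod1, chr16:90220512-90220811, + strand: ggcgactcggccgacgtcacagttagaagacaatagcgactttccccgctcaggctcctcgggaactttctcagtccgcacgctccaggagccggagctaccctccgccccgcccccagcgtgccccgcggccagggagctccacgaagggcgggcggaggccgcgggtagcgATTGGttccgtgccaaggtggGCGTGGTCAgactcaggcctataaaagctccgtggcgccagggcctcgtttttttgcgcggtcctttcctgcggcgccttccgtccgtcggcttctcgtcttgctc
Txnip, chr3:96557707-96558006, + strand: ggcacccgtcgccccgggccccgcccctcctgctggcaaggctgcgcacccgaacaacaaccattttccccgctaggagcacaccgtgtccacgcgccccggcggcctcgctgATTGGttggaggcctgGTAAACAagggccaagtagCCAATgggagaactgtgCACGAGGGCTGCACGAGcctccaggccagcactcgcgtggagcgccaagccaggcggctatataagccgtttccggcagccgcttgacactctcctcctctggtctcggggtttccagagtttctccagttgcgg

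The Txnip window held the carbohydrate response element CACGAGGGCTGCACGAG, which began 85 bases before the start, and the FoxO site GTAAACA, which began 121 bases before it. The carbohydrate response element occurred in 0.365% and the FoxO site in 3.65% of the 32851 promoters of the table. The Sod1 match, GCGTGGTCA on the other strand, began 56 bases before the start, and the antioxidant response element core was found in 12.4% of all promoters. Nqo1 had no match to this core in its window. CCAAT boxes were found in Sod1, Sod2, Cat, Gpx3, Gpx4 and Txnip (6 of the 8 genes), and in 37.4% of all promoters. The Gpx1 window held none of the 4 motifs. These are matches of letters in a fixed window and not measured binding sites.

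Levels of different genes were compared per length, as normalised counts per kilobase of the annotated principal transcript. The order depends on this length, above all for Sod1. Per kilobase of all annotated exons, Sod1 averaged 388 in naive and 320 in DMM cartilage. This was below Gpx3 (1380 and 2660), Txnip (1110 and 1100) and Cat (656 and 552). Gpx1 was first with either length (6700 and 4080 with all annotated exons). In RNA of naive cartilage, which mixes cell types, Gpx1 was the most abundant of the 10 at 9010 ± 2080 per kilobase (SD, n = 4). Its lowest library (6860) lay above the highest library of Sod1 (2640). Sod1 (2400 ± 281), Gpx3 (1570 ± 493), Gpx4 (1540 ± 321) and Txnip (1240 ± 88.8) followed, each overlapping its neighbour in the order. Cat (656 ± 95.8), Hmox1 (624 ± 195) and Sod3 (345 ± 101) came next, again with overlap between neighbours. Sod2 (88.3 ± 6.78) and Nqo1 (37.7 ± 4.31) were the least abundant and overlapped no neighbour. In DMM cartilage Gpx1 (5480 ± 1300, SD, n = 4) was again first, and Gpx3 (3020 ± 611) stood second with a range that overlapped that of Sod1 (1980 ± 316) and not that of Gpx1. Sod3 moved from the eighth to the sixth place (603 ± 137), level with Cat (552 ± 128).

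Sod3 (chr5:52363791-52371418, + strand, GRCm38), the extracellular superoxide dismutase, had 943, 995, 1515 and 1706 normalised counts in naive libraries 1 to 4. DMM libraries 1 to 4 held 2015, 2431, 2877 and 1696 normalised counts. The 3 highest libraries were all DMM, and DMM 4 lay just below naive 4, so the groups overlapped by this pair. The mean was 1289.9 ± 379 in naive against 2255 ± 513 in DMM cartilage (SD, n = 4 each). On the log2 scale this was a rise of 0.81 with a 95% interval of 0.38 to 1.23 (DESeq2 adjusted p = 0.00244). The call was kept when any of the 8 libraries was left out, with log2 fold changes of 0.67 to 0.97.

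The intracellular dismutases were not called. Sod1 (chr16:90220754-90226329, + strand) had 1689, 1686, 1321 and 1463 normalised counts in naive libraries and 1069.8, 1229.8, 1553 and 1230.1 in DMM libraries. Of the DMM libraries, 3 lay below every naive library and DMM 3 lay among them. The log2 fold change was -0.28 with an interval of -0.56 to 0.00 (DESeq2 adjusted p = 0.16), so a fall to 0.681 fold was within its error. Without DMM 3 the difference was -0.39 (DESeq2 adjusted p = 0.0227), under the 1.5-fold threshold. Sod1 overlaps Scaf4 on the opposite strand, which averaged 884 normalised counts in the naive group and 898 in the DMM group, and it is not stated whether counting used strand.

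Sod2 (chr17:13006846-13040063, + strand) had 515, 556, 463 and 535 normalised counts in naive libraries 1 to 4, and 554, 526, 521 and 480.1 in DMM 1 to 4. All DMM libraries lay within the naive range. Its log2 fold change of 0.01 had an interval of -0.21 to 0.22, the narrowest of the 10 genes beside that of Txnip (DESeq2 adjusted p = 0.97).

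Gpx3 (chr11:54902453-54910377, + strand), the secreted selenium-dependent peroxidase, had 1699, 2171, 2623 and 3543 normalised counts in the naive libraries. In the DMM libraries it had 5332, 4277, 5905 and 3765 normalised counts. Every DMM library was above every naive library. This held for 1 of the 10 genes, while the groups did not overlap for 21.4% of all genes tested. The mean was 2509 ± 786 in naive against 4820.0 ± 974 in DMM cartilage (SD, n = 4 each), and the log2 difference was 0.94 with an interval of 0.52 to 1.36 (DESeq2 adjusted p = 0.00024). Leaving out single libraries gave 0.80 to 1.15, and the gene was called each time.

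Gpx1 (chr9:108338903-108340343, + strand), the cytosolic and mitochondrial selenium-dependent peroxidase, had 11274, 11832, 8159 and 7353 normalised counts in naive libraries. The DMM libraries had 5074, 4905, 7918 and 5622 normalised counts. Naive 1 and naive 2 were the highest, and DMM 3 was the only DMM library above the lowest naive library. The mean was 9654 ± 2229 in naive against 5879.8 ± 1393 in DMM cartilage (SD, n = 4 each), and the log2 difference was -0.72 with an interval of -1.10 to -0.33 (DESeq2 adjusted p = 0.00264). It was called in all 8 fits that left out a library, with log2 fold changes of -0.89 to -0.60. With libraries scaled by their total count it was -0.55 (DESeq2 adjusted p = 0.0146), which no longer reached 1.5-fold. Under that scaling the median difference of all genes averaging 10 or more normalised counts went from -0.014 to 0.138 (log2).

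Gpx4 (chr10:80047166-80056439, + strand), which reduces lipid hydroperoxides, had 1489.7, 1902, 1291 and 1215 normalised counts in naive libraries 1 to 4, and 1134, 1237, 1340.2 and 982 in DMM 1 to 4. The groups overlapped and 2 DMM libraries lay below all naive libraries. The log2 fold change was -0.33 with an interval of -0.65 to -0.01 (DESeq2 adjusted p = 0.138). Of its 31-base words, 38.9% also occur in other transcripts, mainly the pseudogene Gpx4-ps2, which had at most 19.3 normalised counts in any library.

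Cat (chr2:103453849-103485160, - strand) had 1826, 1994, 1615 and 1418 normalised counts in naive libraries 1 to 4, and 1304, 1378, 1925 and 1158 in DMM 1 to 4. DMM 3 was near the top of the naive range and the other 3 DMM libraries lay below it. The log2 fold change was -0.25 with an interval of -0.59 to 0.09 (DESeq2 adjusted p = 0.339), and without DMM 3 it was -0.42 (DESeq2 adjusted p = 0.0248), under the 1.5-fold threshold.

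Among Gpx1, Gpx3 and Gpx4, and among the 3 dismutases, the balance of transcripts shifted toward the secreted enzyme. These ratios and shares use the same counts as the calls above and add no separate evidence. The ratio of Gpx3 to Gpx1 counts, which needs no length correction between libraries, was 0.151, 0.183, 0.322 and 0.482 in naive and 1.05, 0.872, 0.746 and 0.67 in DMM libraries. All DMM ratios lay above all naive ratios. The ratio of Sod3 to Sod1 was 0.558, 0.59, 1.15 and 1.17 in naive and 1.88, 1.98, 1.85 and 1.38 in DMM libraries, again without overlap. Per base of the principal transcript, Gpx3 made up 13.6% ± 6.14 of Gpx1, Gpx3 and Gpx4 together in naive and 31.1% ± 3.71 in the DMM group (SD, n = 4 each). Sod3 made up 12.4% ± 4.25 of the 3 dismutases in naive and 22.5% ± 2.69 in DMM libraries. With the union of all annotated exons as length, the Sod3 share was 43.5% ± 9.66 in naive and 61.5% ± 3.8 in DMM libraries. This gap arose because the union for Sod1 (3970 bases) includes a long annotated transcript beside its 641-base principal transcript. The shares depend on the length chosen, and both choices gave higher Sod3 and Gpx3 shares in each DMM library than in each naive library.

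**Figure D2:**
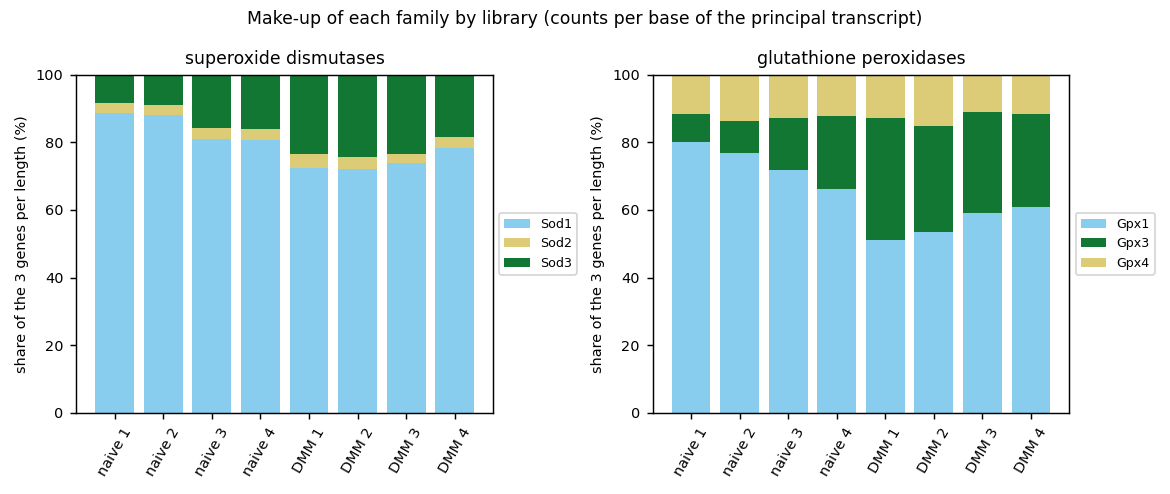
Stacked bars give, for each of the 8 libraries, the share (%) of each gene in its family, from counts divided by the length of the principal transcript. The Gpx3 portion ranges from 8.11% to 21.5% in naive and from 27.4% to 36.1% in DMM libraries, and the Sod3 portion from 8.48% to 16.1% and from 18.5% to 24.5%.

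Hmox1 (chr8:75093621-75100589, + strand), which degrades haem to biliverdin, iron and carbon monoxide, had 1145, 1322, 772 and 676 normalised counts in naive libraries. The DMM libraries had 482, 514, 734 and 499 normalised counts. As with Gpx1, naive 1 and naive 2 were the highest and DMM 3 alone reached into the naive range. The mean was 979 ± 306 in naive against 557 ± 119 in DMM cartilage (SD, n = 4 each), and the log2 difference was -0.81 with an interval of -1.25 to -0.38 (DESeq2 adjusted p = 0.00283). It was called in all 8 fits with a library left out (-0.97 to -0.63).

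Nqo1 (chr8:107388225-107403206, - strand), a second NRF2 target, was the least abundant of the 10, with 60.7, 51.9, 54.6 and 66.9 normalised counts in naive libraries 1 to 4, and 46.4, 39.8, 58.5 and 43.3 in DMM 1 to 4. DMM 3 lay within the naive range and the other 3 DMM libraries below it. The log2 fold change of -0.31 had the widest interval of the 10 genes, -0.78 to 0.16 (DESeq2 adjusted p = 0.40), so a fall of 1.5-fold lay within its error at this depth.

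Txnip (chr3:96557957-96561883, + strand) had 3421, 3765, 3160.5 and 3488 normalised counts in naive libraries 1 to 4, and 3601, 3875, 3259.9 and 2993 in DMM 1 to 4. The highest and the lowest library were both DMM, and the naive libraries lay between them. Its log2 fold change was -0.01 with an interval of -0.23 to 0.21 (0.853 to 1.15 fold, DESeq2 adjusted p = 0.965), an interval that leaves out a 1.5-fold change in either direction. The sign changed with the scaling, to 0.02 with TMM factors and 0.15 with the total count. Txnip overlaps Gm15441 on the opposite strand, which averaged 132 normalised counts in the naive group and 119 in the DMM group.

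**Figure D3:**
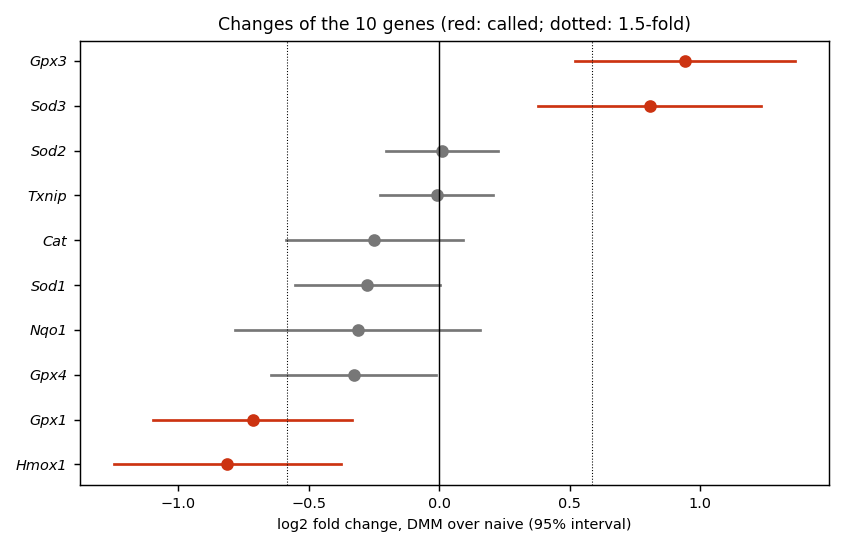
Log2 fold change (x axis, DMM over naive) of each gene with its 95% interval, where red marks the 4 called genes and dotted lines mark 1.5-fold. Gpx3 and Sod3 lie to the right of 0, Hmox1 and Gpx1 to the left, and the intervals of Sod2 and Txnip lie inside the dotted lines.

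Bulk cartilage RNA mixes cells, and fewer cells of a type and less RNA per cell cannot be told apart. Library totals were 12479443 to 16548002 estimated counts, and p-values measure the spread between mice. The most abundant identifier, ENSMUSG00000119584, for which no symbol was found, held 10.1 to 17.9% of counts in naive and 4.31 to 8.65% in DMM libraries (two-sided exact permutation p = 0.0286), which enters total-count scaling and all shares of counts, and its part in the results was not tested beyond the shares recomputed without it. Chondrocyte markers (12 of 12 in the table) held 0.239 to 0.437% of counts in naive and 0.64 to 1.15% in DMM libraries. Osteoblast and osteocyte markers (8 of 8) held 0.121 to 0.182% and 0.294 to 0.54%, endothelial markers (6 of 6) 0.0207 to 0.0281% and 0.0328 to 0.0378%, and these 3 lists were higher in every DMM library (two-sided exact permutation p = 0.0286 each, the smallest that 4 against 4 allows, 0.0629 adjusted over the 11 lists). Macrophage (p = 0.229), B cell (p = 0.257), osteoclast (p = 0.0571), adipocyte (p = 0.0857) and skeletal muscle (p = 0.6) shares overlapped between groups in the same exact test. No marker was at 0 in all 8 libraries.

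Several marker lists moved with the groups. The chondrocyte, osteoblast and osteocyte, and endothelial lists above (5 of 12, 7 of 8 and 2 of 6 markers called higher) moved in the direction of Sod3 and Gpx3. Neutrophil lineage markers (12 of 12 in the table) held 0.854 to 1.19% of counts in naive and 0.40 to 0.844% in DMM libraries (two-sided exact permutation p = 0.0286), and 11 of the 12 were called lower, in the direction of Gpx1 and Hmox1. Fibroblast markers (8 of 8 in the table) held 0.869 to 1.32% of counts in naive and 2.55 to 3.63% in DMM libraries (two-sided exact permutation p = 0.0286). Of the 8, 7 were called higher, in the direction of Sod3 and Gpx3. Pi16 was lower, below 1.5-fold (log2 fold change -0.35, DESeq2 adjusted p = 0.0101). Col1a1 had the highest counts of the 8, with 109000 to 198000 normalised counts in naive and 267000 to 384000 in DMM libraries. The summed share therefore rests largely on Col1a1. Erythroid markers (11 of 12 in the table), globins and red cell membrane proteins, held 1.1 to 1.83% in naive and 0.608 to 1.28% in DMM libraries (two-sided exact permutation p = 0.0857), and 10 of the 11 were called lower, in the direction of Gpx1 and Hmox1. Naive 1 (1.81%) and naive 2 (1.83%) had the highest erythroid shares and the highest Gpx1 and Hmox1 counts. DMM 3 had an erythroid share of 1.28%, against 0.608 to 0.665% in the other DMM libraries. It was the DMM library with the highest Gpx1 and Hmox1, and also with the highest Sod3 (2877) and Gpx3 (5905), which were called higher. The neutrophil lineage share was highest in naive 3 (1.19%) and, among DMM libraries, in DMM 4 (0.844%). The part of these marker shifts in the results for the 4 genes was not tested.

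**Figure D4:**
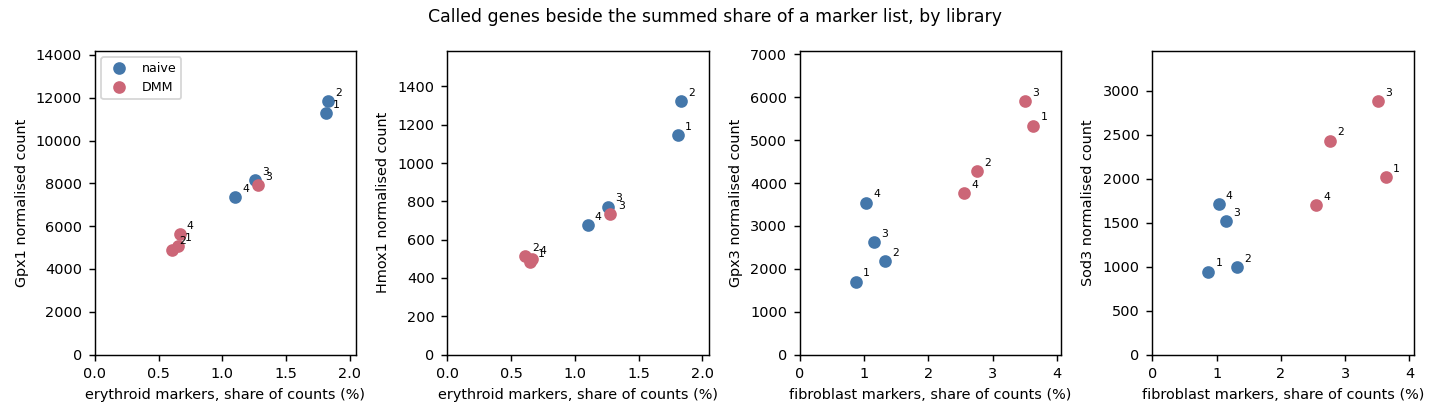
Each point is a library (blue naive, red DMM, numbered by replicate), with the summed share of counts (%) of a marker list on the x axis and the normalised count of a called gene on the y axis. Gpx1 and Hmox1 are low in the 3 DMM libraries with erythroid shares of 0.608 to 0.665% and lie near those of naive 3 and naive 4 in DMM 3, and the Gpx3 and Sod3 panels have the naive libraries at fibroblast shares up to 1.32% and the DMM libraries from 2.55%.

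The genes with the most similar profiles were sought among 10471 protein-coding genes averaging 100 or more normalised counts, by Pearson's r of log2 normalised counts over the 8 libraries, as a description. For Gpx1 they were Glrx5 (r = 0.998), a mitochondrial glutaredoxin, and Hba-a2 (r = 0.997), an alpha-globin gene and one of the erythroid markers. For Gpx3 they were Pdgfra (r = 0.997), a growth factor receptor among the fibroblast markers, and Tbx15 (r = 0.996), a T-box transcription factor. For Hmox1 they were Hist1h1b (r = 0.998) and Hist1h1d (r = 0.997), both linker histones. For Sod3 they were Ergic1 (r = 0.988), of the transport between endoplasmic reticulum and Golgi, and Ift122 (r = 0.986), of intraflagellar transport. The 8 points share libraries and both groups, so any gene that differs between groups gains in r.

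Other redox enzymes, oxidase subunits, metal-handling genes and transcription factors were read beside the 10 genes, from 13 lists of 135 further redox genes. Of these, 128 received an adjusted p. In all, 23 of the 128 were called (18.0%, against 13.0% of all genes tested), 9 higher and 14 lower, with a median log2 fold change of -0.02 against -0.01 over all genes tested. The lists too were chosen with earlier results of these data known, so this share is a description. The balance of directions depended on the scaling, with 10 higher and 11 lower under TMM factors and 11 higher and 2 lower under total-count scaling.

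Among other glutathione peroxidases and enzymes of glutathione synthesis, 2 of 10 tested were higher and 2 were lower, and 1 more passed the adjusted p below 1.5-fold. Gpx7 (1.09 on the log2 scale, DESeq2 adjusted p = 0.000313) and Gpx8 (0.80, DESeq2 adjusted p = 0.000449), peroxidases of the endoplasmic reticulum, rose. Gpx7 had 53.2 to 68.0 normalised counts in naive and 77.4 to 156 in DMM libraries, and Gpx8 had 149.5 to 249 and 288 to 433. Neither gene's groups overlapped. Gsr, the reductase that regenerates glutathione for the peroxidases, fell from 3730.5 ± 629 to 2335 ± 394 normalised counts (log2 fold change -0.68, DESeq2 adjusted p = 0.000456). Chac2, which degrades glutathione and was picked after its values were seen, was also called lower (-0.88).

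Peroxiredoxins use thioredoxin to remove peroxide, and 2 of 6 were called, both lower. Another 2 passed the adjusted p below 1.5-fold. Prdx2, abundant in red cells, had a log2 difference of -0.64 (DESeq2 adjusted p = 0.0149), and that of Prdx5 was -0.60 (DESeq2 adjusted p = 0.00365). Both were close to the threshold, and Prdx2 kept its call in 3 and Prdx5 in 5 of the 8 fits that left out a library. In the thioredoxin and glutaredoxin system, Glrx (-0.61) and Glrx5 (-0.73) were lower and 8 of 10 genes were not called. Of these 8, 2 passed the adjusted p below 1.5-fold.

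NADPH feeds glutathione reductase and thioredoxin reductase. The list of 8 genes for its supply also holds Tkt and Taldo1, of the branch of the pentose phosphate pathway that makes no NADPH itself. G6pdx (-0.64, DESeq2 adjusted p = 0.000679), which makes NADPH, and Tkt (-0.62, DESeq2 adjusted p = 0.00068), which does not, were lower and malic enzyme Me1 (0.69, DESeq2 adjusted p = 0.0195) was higher. Idh1 (-0.18) and Idh2 (-0.14) were not called. Of the 5 genes not called in this list, 2 passed the adjusted p below 1.5-fold, both lower. These were Pgd (-0.49, DESeq2 adjusted p = 0.0165), which makes NADPH, and Taldo1 (-0.525, DESeq2 adjusted p = 0.00997).

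NRF2 itself (Nfe2l2) and its partners were read beside Nqo1 and Hmox1. Nfe2l2 was not called (log2 fold change -0.19, DESeq2 adjusted p = 0.235). Nfe2l1, picked after its values were seen, passed the adjusted p below 1.5-fold (0.31, DESeq2 adjusted p = 0.0137). In the list of NRF2 and its regulators 1 of 10 genes was called, Maff (1.06, DESeq2 adjusted p = 0.00211), a small Maf partner that went from a mean of 43.1 ± 12.6 to 90.0 ± 22.9 normalised counts (SD, n = 4 each). In haem and iron handling 1 of 10 tested was called, the biliverdin reductase Blvrb (-0.73, DESeq2 adjusted p = 0.00569). Blvrb is abundant in red cells, and the part of red cells in its fall was not tested. Another 2 genes of that list passed the adjusted p below 1.5-fold.

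Of the NADPH oxidase subunits, 5 of 9 tested were called, and 3 others passed the adjusted p below 1.5-fold. Nox4 rose from 67.7 ± 15.8 to 158 ± 40.3 normalised counts (log2 fold change 1.22, DESeq2 adjusted p = 2.36e-05). The catalytic subunit of the phagocyte oxidase, Cybb, fell from 7532 ± 960 to 4657 ± 916 normalised counts (-0.69, DESeq2 adjusted p = 0.000269), and its regulatory subunit Ncf4 fell with it (-0.63, DESeq2 adjusted p = 0.000194). Duox1 (1.13) and Ncf1 (-0.66), picked after their values were seen, were the other called subunits. The neutrophil lineage markers, 11 of 12 of which were called lower, moved in the same direction as the phagocyte subunits, and their part in that fall was not tested.

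Txnip was also read beside its relatives and regulators. None of the 7 tested alpha-arrestins and glucose-sensing factors was called by DESeq2, edgeR or limma-voom, and 0 had an unadjusted DESeq2 p under 0.05. Arrdc4, an alpha-arrestin with glucose-responsive transcription, averaged 708 ± 91.1 normalised counts in the naive group and 782 ± 137 in the DMM group (log2 fold change 0.14, DESeq2 adjusted p = 0.591). The glucose-sensing factor MondoA (Mlxip) had a log2 difference of 0.09 (DESeq2 adjusted p = 0.773) and Mlx of -0.16 (DESeq2 adjusted p = 0.542). ChREBP (Mlxipl) had the largest difference of the 7, at 0.777 with an interval of -0.044 to 1.597 (DESeq2 adjusted p = 0.188). For ChREBP, 3 DMM libraries lay above every naive library, and a rise of 1.5-fold lay within its error. In the FoxO factors and sestrins, Foxo6 was called higher (1.27, DESeq2 adjusted p = 0.0318) from a mean of 10.2 normalised counts in naive libraries, and it kept its call in 2 of the 8 fits that left out a library. Foxo1 (0.39, DESeq2 adjusted p = 0.0328) and Sesn3 (0.41, DESeq2 adjusted p = 0.00745) passed the adjusted p below 1.5-fold.

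The remaining lists held 3 calls or fewer each. Of 14 glutathione transferases, Gstm2 (0.77) and Gstt3 (0.77) were higher and Mgst2 (-0.61) was lower. That is 21.4% called, against 13.0% of all genes tested, and 1 more passed the adjusted p below 1.5-fold. Of 9 genes for copper delivery, which loads Sod1 and Sod3, and metallothioneins, Atp7b (-1.03) was lower (11.1% called). None of 13 genes of selenoprotein synthesis and other selenoproteins, the group to which Gpx1, Gpx3 and Gpx4 belong, was called by DESeq2, edgeR or limma-voom, although 4 passed the adjusted p below 1.5-fold and 5 had an unadjusted p under 0.05. None of 15 genes of peroxisome assembly, the site of Cat, was called by these tools, and 1 had an unadjusted DESeq2 p under 0.05. Of the called redox genes, Gpx7, Gpx8, Glrx5, Maff, Nox4 and Atp7b kept their calls when any of the 8 libraries was left out. Without DMM 1, Gsr (-0.58), G6pdx (-0.52), Cybb (-0.58), Tkt (-0.53), Ncf1 (-0.54) and Ncf4 (-0.57) fell under 1.5-fold, and without naive 2 so did Tkt (-0.49), Ncf1 (-0.56), Ncf4 (-0.53) and Blvrb (-0.57). Chac2 lost its call without naive 1 (-0.70). The others, Glrx, Prdx2, Prdx5, Gstm2, Gstt3, Mgst2, Me1, Duox1 and Foxo6, lost theirs in 2 to 6 of the 8 fits.

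**Figure D5:**
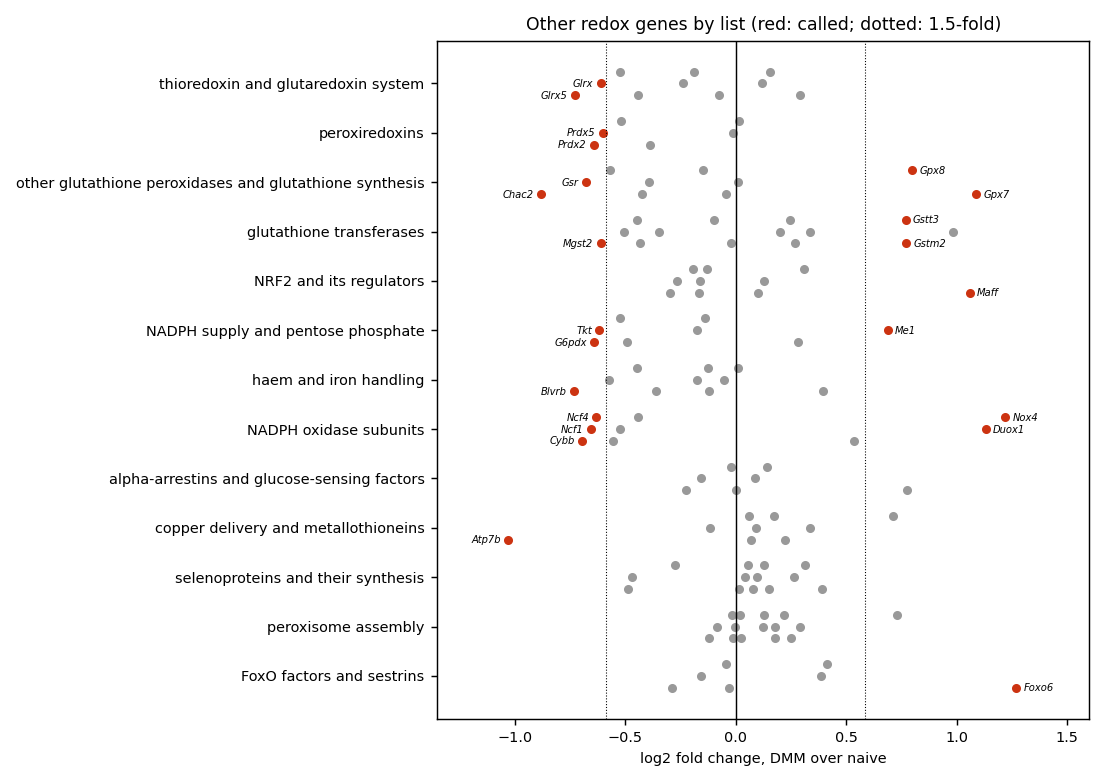
Each point is a redox gene with an adjusted p, placed by its log2 fold change (x axis, DMM over naive) and its list (y axis, vertical offsets within a list only separate points). Red points with names are the 23 called genes, and the dotted lines mark 1.5-fold. The called NADPH oxidase subunits lie on both sides of 0, and the lists of arrestins, selenoproteins and peroxisome assembly have no red points.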

How the data were processed

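Cartilage RNA of 8 mice (4 naive, 4 DMM) was sequenced. The authors trimmed reads with Trimmomatic version 0.39, pseudo-aligned them with Kallisto version 0.46.1 and summed transcripts to genes with tximport version 1.14.0, and deposited estimated counts, of which 39.2% are not whole. Reads that fit several transcripts are thus divided between genes. The methods name mouse GRCm38 with Ensembl release 103, whose own mouse assembly is a later one, and the submitters' processing notes name a human build. The identifiers are those of mouse genes, and which mouse build lies behind the table is uncertain. Library kits differ between the labels (NEB) and the methods (SMART-Seq), and strand use in counting was not stated. Coordinates are from GENCODE vM21 (GRCm38).

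Estimated counts were rounded and tested with DESeq2 version 1.42.0 (R version 4.3.3) by its Wald test, with its default size factors and default filtering and no covariates, the test the study names. P-values were adjusted by Benjamini-Hochberg over all 18707 genes tested, and calls needed an adjusted value of at most 0.05 and 1.5-fold or more. Normalised counts are counts divided by size factors (0.752 to 1.21), and log2 fold changes are unshrunken. Total depth was 12479443 to 16548002 estimated counts per library. Shares of counts were compared with two-sided exact permutation tests over 70 assignments.

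The 10 genes and all lists were chosen with earlier results of these data known. The text names the 10 genes, up to 3 called genes with the smallest adjusted p of each redox list, any gene of a list of 8 or fewer, and the 2 most similar profiles of each called gene. It also names Nfe2l2, some fibroblast markers and genes marked as picked after their values were seen. Promoters were read from RefSeq. The scripts were first tested on simulated data. Alternatives were edgeR version 4.0.16, limma-voom (limma version 3.58.1), TMM or total-count scaling, other filters, no fold threshold, a 1.5-fold null, shrunken fold changes, a replicate block, leaving out each library, and other transcript lengths (the principal transcript was added after the data were seen).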

Additional observations from a re-analysis of the deposited data

Results flagged for a closer look

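Over 50 groups of 4 libraries, 6 held a library whose gap to the others passed Dixon's 95% critical value, where chance alone gives about 1 in 20. Hmox1 was at 734 normalised counts in DMM 3, against 482 to 514 in the other DMM libraries. The erythroid share of the same library was 1.28%, against 0.608 to 0.665%. Without DMM 3 the log2 fold change of Hmox1 was -0.97 and that of Gpx1 was -0.89. The endothelial share of naive 2 was 0.0207%, against 0.0279 to 0.0281% in the other naive libraries. Skeletal muscle markers held 0.00324% in naive 3, against 0.000316 to 0.000752%, and 0.00906% in DMM 1, against 0.000329 to 0.00118%. Naive 2 had 16770 genes with 10 or more counts, against 18276 to 18467 in the other naive libraries, and all 4 called antioxidant genes kept their calls without it.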

How the results depend on the processing

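Gpx1, Gpx3, Hmox1 and Sod3 kept direction and call under every alternative, including edgeR, limma-voom and each library left out (4 of 10 called in each of the 8 fits), except that none of the 10 was called against a 1.5-fold null (0, with 88 of all genes called) and that Gpx1 fell below 1.5-fold with total-count scaling (-0.55). Over the alternatives, DESeq2, edgeR and limma adjusted p-values ran from 6.13e-08 to 1.0 for Gpx3 and from 2.17e-05 to 1.0 for Gpx1, with 1.0 against the 1.5-fold null. All genes called numbered 2434, with 3975 without a fold threshold and 1851 to 2855 with a library left out. Of the called genes 56.7% were higher, and 80.7% with total-count scaling.

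The 23 calls in the redox lists were the least stable, with 13 (11 higher, 2 lower) under total-count scaling, 43 without a fold threshold, 0 against the 1.5-fold null, 15 with shrunken fold changes, and 10 to 31 with a library left out (15 without naive 1, 14 without naive 2, 10 without DMM 1). Fold changes near 0 changed sign: Sod2 ran from -0.042 to 0.0471 with a library left out, and Txnip from -0.0734 to 0.0508, with 0.0069 in edgeR, 0.0151 with TMM factors and 0.1456 with the total count. The macrophage share difference (DMM minus naive) was 0.0037 percentage points, and -0.00113 without the most abundant identifier. With the principal transcript as length the Sod3 share was 12.4% in naive and 22.5% in DMM libraries, and the Gpx3 share in DMM libraries was 35.9% with union exons, 31.1% with the principal and 31.3% with the longest transcript.

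Replicate numbers did not pair the libraries, since same-numbered pairs correlated at 0.05, 0.06, -0.12 and 0.12. With the replicate number as a block, 2079 genes, 4 of the 10 antioxidant genes and 19 redox list genes were called. Precision is limited by 4 mice a group and, for Nqo1, by its 39.8 to 66.9 normalised counts.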
